A study of Mus musculus with 5 samples.

Results

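Messenger RNA of 31 genes of the oligodendrocyte lineage and of myelin was followed in primary microglia from mouse brain, out of 21983 genes counted. The 31 were taken by gene symbol from a set list of myelin proteins, lineage regulators, enzymes of myelin lipids and genes of precursor cells, by a rule that uses no measured value, and all 31 had a row. The study targeted Ythdf2, which encodes a cytoplasmic reader of N6-methyladenosine, in microglia and asked which processes and pathways differ. In 2 libraries the labelled genotype is Cx3cr1CreERT2 Ythdf2fl/fl, in which a tamoxifen-activated Cre is driven from the Cx3cr1 locus used by microglia and other myeloid cells; the other 3 are controls labelled Ythdf2fl/fl, so floxed Ythdf2 alleles are common to all 5. Age, sex, any tamoxifen treatment and whether libraries came from separate animals or cultures are not given in the labels, so each p-value reflects spread among these 5 libraries alone, part of which may be technical.

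Total gene counts ranged from 13947500 to 19577217 per library. Ythdf2 itself stood at 103 and 127 CPM (read counts scaled to a common library size) in knockout-labelled libraries 1 and 2, against 57.0, 69.2 and 68.8 CPM in controls 1 to 3. A count over the whole gene includes exons outside the deleted part and so does not check the deletion. Because Ythdf2 was not lower under its label, the first group is called knockout-labelled throughout, and directions rest on those labels. Cx3cr1, whose locus the label names, was at 337 and 97.7 CPM, against 682, 992 and 681 CPM in controls 1 to 3. What sets its level was not tested.

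Oligodendrocytes wrap axons of the central nervous system in myelin, a stack of membrane held together by a few abundant proteins and rich in galactolipids. They arise from precursor cells that carry NG2 and the PDGF alpha receptor, pass through a short premyelinating stage, and mature under transcription factors such as SOX10, OLIG2 and MYRF. These cells do not normally express Cx3cr1, and their transcripts are commonly used to check microglial preparations for other cells. In bulk RNA, fewer cells of a type and less RNA per cell cannot be told apart.

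The sequences upstream of the start of 3 myelin genes are shown because SOX10 and MYRF, both measured below, are known to act on myelin genes. Reference sequence before the gene start was taken from RefSeq (GRCm38.p6), where 22 of the 31 genes had an entry. The words ACAAAG and ACAATG (SOX) and CTGGCAC and CTGGTAC (MYRF) were searched on both strands of 250 bases. At least 1 SOX word stood in 13 of 29 listed promoters of these genes, belonging to 11 genes (44.8% of promoters), against 25.2% of 32851 promoters of all genes; promoters of 1 gene can overlap. A MYRF word stood in 4 of the 29, from 3 genes (13.8%), against 5.93% of all. Mag and Cnp were shown since both words lie in each, and Mobp since it held the most SOX words, 6 copies of ACAAAG read on the other strand. Bases past the gene start annotated in GENCODE M21 were not printed. Capitals mark the matches, and a match is a description of letters and not a binding site. The windows are chr7:30914923-30915172 (minus strand) for Mag, chr11:100574689-100574903 (plus strand) for Cnp and chr9:120149492-120149706 (plus strand) for Mobp, each given 5′ to 3′ on the gene's strand.
Mag: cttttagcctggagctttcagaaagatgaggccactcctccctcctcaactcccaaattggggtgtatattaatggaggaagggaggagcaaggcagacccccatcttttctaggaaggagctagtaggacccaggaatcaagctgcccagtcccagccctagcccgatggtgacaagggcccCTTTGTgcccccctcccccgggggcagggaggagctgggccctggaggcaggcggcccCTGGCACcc
Cnp: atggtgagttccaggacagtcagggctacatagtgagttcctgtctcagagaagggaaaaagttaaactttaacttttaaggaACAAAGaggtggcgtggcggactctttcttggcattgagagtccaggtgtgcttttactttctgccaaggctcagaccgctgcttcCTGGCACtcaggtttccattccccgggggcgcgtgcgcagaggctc
Mobp: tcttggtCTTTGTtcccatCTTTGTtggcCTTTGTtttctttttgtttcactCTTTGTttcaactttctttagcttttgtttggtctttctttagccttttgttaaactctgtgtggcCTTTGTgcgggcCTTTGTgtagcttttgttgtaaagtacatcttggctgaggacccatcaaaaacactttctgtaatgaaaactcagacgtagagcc

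The oligodendrocyte and myelin genes were detected as a set in every library, with Mbp alone giving 39.5% to 54.4% of their reads and some members scarce. They differed far more from library to library than between the labelled groups. Their counts made up 1.13% and 0.395% of all counts in knockout-labelled libraries 1 and 2, against 0.920%, 0.753% and 0.130% in controls 1 to 3. Knockout-labelled library 1 was therefore the richest and control 3 the poorest, with knockout-labelled library 2 between control 2 and control 3. Of the 30 members tested, 22 were highest in knockout-labelled library 1 and lowest in control 3, a pattern found in 14% of all 12543 genes tested (30.3% were highest in the first of these and 23.5% lowest in the second). In 26 members knockout-labelled library 2 lay below controls 1 and 2 and above control 3, as it did in 14.7% of all genes.

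**Figure D1:**
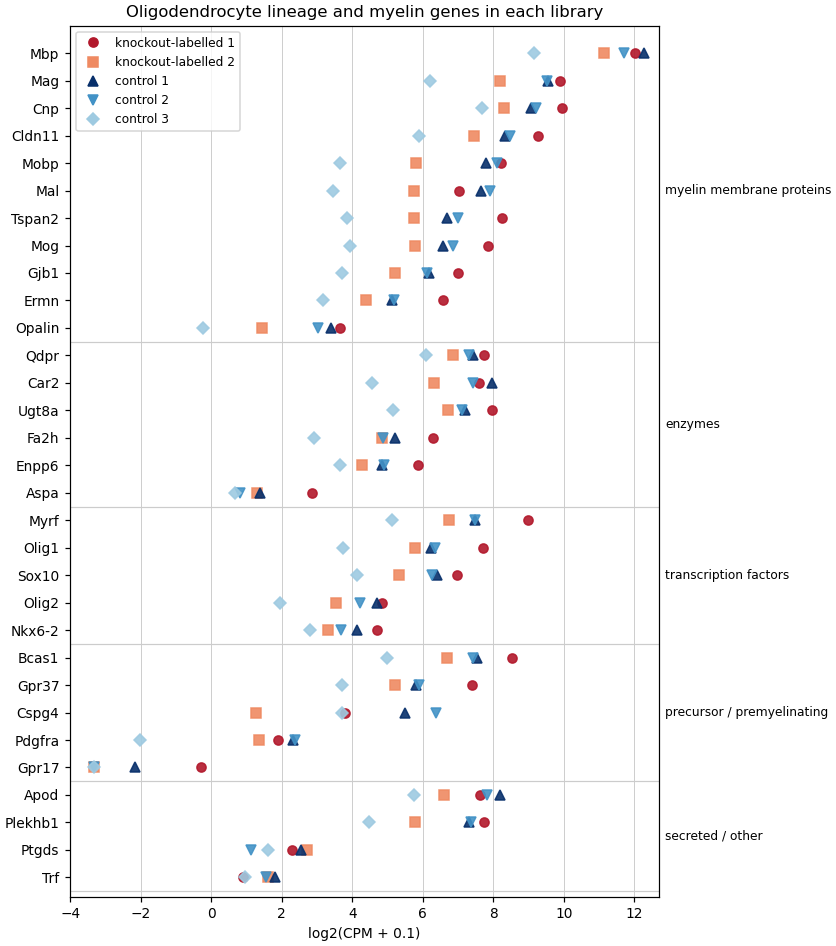
Level of each of the 31 genes in each library, as log2(CPM + 0.1), with genes grouped by role and ordered by mean level; each symbol is 1 library. In most rows control 3 lies far left and knockout-labelled library 1 far right, with knockout-labelled library 2 among the controls, while Cspg4, Ptgds and Trf keep another order.

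No member passed the test between the groups. The edgeR quasi-likelihood test called 0 of 30 members at an adjusted p under 0.05, with 0 also at an unadjusted p under 0.05; limma-voom gave 0 by either measure and DESeq2 called 0 of 31. Over all 12543 genes, edgeR called 0 higher (0% of genes) and 0 lower (0%), and 838 (6.68%) had an unadjusted p under 0.05. DESeq2 called 232 of 13811 genes (1.68%), and limma-voom called 0, with 752 (6%) below 0.05 before adjustment. In none of the 30 members were the groups free of overlap, against 20.3% of all genes tested (9.85% above and 10.4% below). The log2 fold change was above 0 in 24 of 30 members, beside 51.1% of all genes, with a median of 0.53 beside 0.01 over all genes. This positive median rested on knockout-labelled library 1: without it the median was -0.50 and 4 of 30 members were above 0, and without control 3 it was 0.21 with 17 above 0. With both of these libraries left out, a choice made after seeing the data that leaves knockout-labelled library 2 against controls 1 and 2, edgeR called 12 of 30 members lower and 0 higher, beside 4.97% and 4.87% of 12724 genes. The lone library is there assumed to vary like the others, and these calls were not made in any of the sets with 1 library left out. Their direction was known before the fit, since knockout-labelled library 2 lay below controls 1 and 2 and above control 3 in 26 of 30 members. The members also moved largely together from library to library. The calls are therefore not read as an excess over the shares of all genes.

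Spread between libraries of one group set the size of these errors. The standard deviation of log2(CPM + 0.5) over the 3 controls had a median of 1.37 over the members (range 0.32 to 2.47), beside 0.28 over all genes tested, and 22 of the 30 exceeded the 95th percentile of all genes, 1.13. Between knockout-labelled libraries 1 and 2 the members differed by a median of 1.64 on the log2 scale, beside 0.57 over all genes. Among the 25 members with a mean of at least 10 CPM, the median deviation of log2 CPM from each gene's own average was 1.21 and -0.43 in those libraries, against 0.45, 0.44 and -1.94 in controls 1 to 3. By this median controls 1 and 2 were nearly equal and control 3 stood apart below them. Some single members differed more between controls 1 and 2, such as Cspg4 at 45.1 and 82.2 CPM.

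Compact myelin and its membrane proteins were the most abundant part of the list, with 11 of 11 members tested, 0 called, and 10 of 11 log2 fold changes above 0 (median 0.53). Mbp, the basic protein that adheres the cytoplasmic faces of myelin, stood at 4173 and 2248 CPM in the knockout-labelled libraries, against 4897, 3353 and 574 CPM in controls 1 to 3. Its means were 3210.3 ± 1361 CPM (SD, n = 2) and 2941 ± 2191 CPM (SD, n = 3), and its log2 fold change of 0.13 (SE 0.843) had an edgeR adjusted p of 0.986. Control 1 was the highest library and control 3 the lowest, so the controls enclosed both knockout-labelled libraries. The Mbp locus also yields golli transcripts in immune cells, which a gene-level count does not separate.

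Mag, an adhesion protein of the innermost myelin wrap, was at 943 and 291 CPM in the knockout-labelled libraries, against 745, 729 and 73.0 CPM in control libraries. Cnp, a phosphodiesterase that keeps cytoplasmic channels open in myelin, was at 976 and 313 CPM, against 538, 595 and 203 CPM in control libraries. Cldn11, the claudin of myelin tight junctions, was at 618 and 174 CPM, against 322, 355 and 59.8 CPM in control libraries. All of these had knockout-labelled library 1 on top and control 3 at the bottom, and their log2 fold changes were 0.26 (SE 0.975), 0.53 (SE 0.629) and 0.69 (SE 0.833). Mog, an immunoglobulin-domain protein of the outermost myelin layer, was at 231 and 54.7 CPM, against 94.9, 116 and 15.2 CPM in control libraries. Tspan2, a tetraspanin of myelin, was at 303 and 53.9 CPM, against 102, 128 and 14.4 CPM in control libraries. Both lay above the controls in knockout-labelled library 1 alone, and without it their log2 fold changes of 0.92 and 1.13 became -0.49 and -0.63.

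Mobp, a small basic myelin protein, stood at 297 and 55.4 CPM in the knockout-labelled libraries, against 223, 273 and 12.6 CPM in control libraries. Its level was 23.6-fold higher in knockout-labelled library 1 than in control 3, and its log2 fold change between groups was 0.05 (SE 1.21). Mal, a proteolipid of membrane rafts in myelin, was highest in control 2 instead, with 130.0 and 54.2 CPM, against 201, 239.6 and 10.9 CPM in control libraries. Controls 1 and 2 exceeded both knockout-labelled libraries and control 3 was the lowest, giving a log2 fold change of -0.71 (SE 1.13; edgeR adjusted p = 0.940). Gjb1, the connexin 32 gap junction subunit, was at 127 and 37.0 CPM, against 71.7, 68.8 and 12.9 CPM in control libraries. Ermn, a cytoskeletal protein of late myelination, was at 95.4 and 20.8 CPM, against 35.1, 36.2 and 8.92 CPM in control libraries. Opalin, a transmembrane protein restricted to oligodendrocytes, was the least abundant of these at 12.5 and 2.59 CPM, against 10.4, 7.98 and 0.743 CPM in control libraries. The order of libraries in Gjb1, Ermn and Opalin was that of Mag at both ends.

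The enzymes had 6 of 6 members tested, 0 called, and 5 of 6 log2 fold changes above 0 (median 0.72). Ugt8a, which makes galactosylceramide, stood at 247 and 104 CPM in the knockout-labelled libraries, against 147, 139 and 35.3 CPM in control libraries. Fa2h, which hydroxylates the fatty acids of myelin galactolipids, was at 78.3 and 28.9 CPM, against 37.2, 29.2 and 7.43 CPM in control libraries. It kept a log2 fold change above 0 without knockout-labelled library 1 (0.20, against 1.12 with it). Enpp6, a choline phosphodiesterase that marks newly forming oligodendrocytes, was at 58.4 and 19.4 CPM, against 28.4, 29.7 and 12.4 CPM in control libraries. Aspa, the aspartoacylase that frees acetate from N-acetylaspartate, was low throughout at 7.20 and 2.38 CPM, against 2.51, 1.65 and 1.49 CPM in control libraries. Its log2 fold change of 1.33 (SE 0.605) was the highest among the members, and the groups overlapped because control 1 exceeded knockout-labelled library 2 (edgeR adjusted p = 0.812). Qdpr, which recycles tetrahydrobiopterin and is expressed in many tissues, had the narrowest span of the enzymes at 211 and 116 CPM, against 171, 159.7 and 67.6 CPM in control libraries. Car2, a carbonic anhydrase also found in other cells, was at 193 and 80.3 CPM, against 247, 169.9 and 23.6 CPM in control libraries, with control 1 highest.

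Lineage transcription factors had the same highest and lowest library as Mag in all 5 members, with 0 called and 5 log2 fold changes above 0 (median 0.52). Myrf, the membrane-anchored factor that switches on the myelin programme, stood at 508 and 107 CPM in the knockout-labelled libraries, against 180.0, 179.6 and 34.5 CPM in control libraries. Its log2 fold change was 1.22 (SE 0.867; edgeR adjusted p = 0.905), and -0.33 without knockout-labelled library 1. Olig1, a basic helix-loop-helix factor of the lineage, was at 208 and 54.3 CPM, against 75.3, 81.9 and 13.3 CPM in control libraries. Olig2, its partner gene that specifies the lineage, was at 28.4 and 11.5 CPM, against 25.8, 18.7 and 3.79 CPM in control libraries. These neighbours on chromosome 16 differed in how far knockout-labelled library 1 stood above control 1, clearly in Olig1 and hardly in Olig2. Sox10, the factor that works with MYRF, was at 125 and 39.7 CPM, against 85.2, 76.4 and 17.5 CPM in control libraries. Nkx6-2, a homeodomain factor of late differentiation, was at 25.9 and 9.84 CPM, against 17.5, 12.8 and 6.84 CPM in control libraries, and 12.9% of its exon bases overlap exons of Inpp5a on the other strand.

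**Figure D2:**
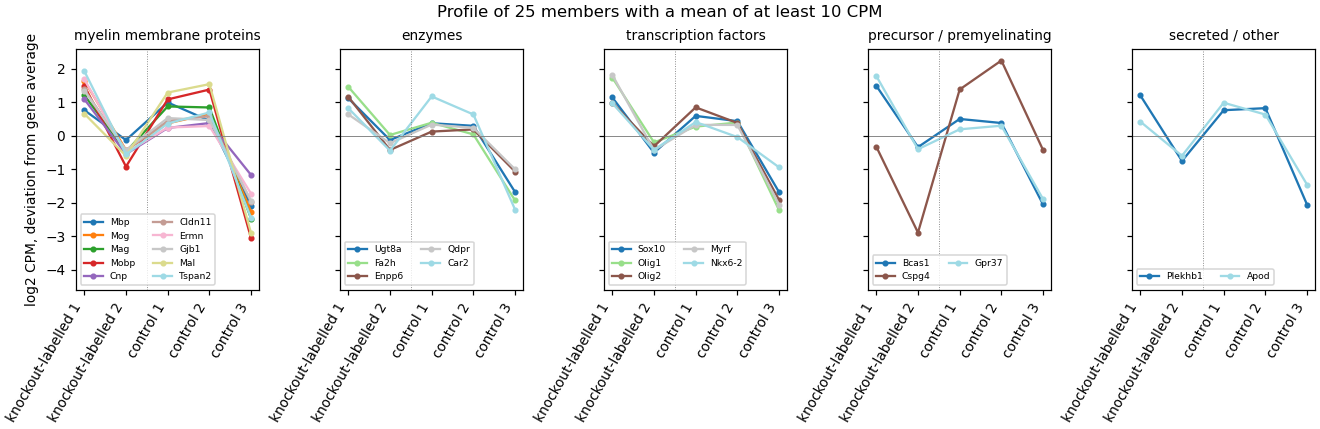
Deviation of log2 CPM from each gene's own average (vertical axis), by library (horizontal axis, a dotted line between the groups), for the 25 members with a mean of at least 10 CPM, 1 line per gene and 1 panel per role. Nearly all lines share 1 shape, with a median of 1.21 in knockout-labelled library 1 and -1.94 in control 3, and Cspg4 departs from it.

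Genes of the precursor and premyelinating stages split into those that followed mature myelin genes and those that did not. Bcas1, which marks premyelinating and early myelinating oligodendrocytes, stood at 368 and 103 CPM in the knockout-labelled libraries, against 185, 169.8 and 31.4 CPM in control libraries. Gpr37, an orphan receptor of differentiating oligodendrocytes, was at 167 and 36.6 CPM, against 55.3, 59.6 and 13.0 CPM in control libraries. Both shared the highest and the lowest library with Mag. Cspg4, the NG2 proteoglycan of precursors and of pericytes, was at 13.8 and 2.32 CPM, against 45.1, 82.2 and 12.9 CPM in control libraries. Controls 1 and 2 were the highest and knockout-labelled library 2 the lowest, while control 3 lay just below knockout-labelled library 1. With a log2 fold change of -2.54 (SE 1.03) it had the smallest adjusted p of any member, 0.745 in edgeR and 0.165 in DESeq2, and the value was -4.36 without knockout-labelled library 1 and -1.76 with library 2 of that group left out.

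Markers of fibroblasts and of mural cells, some of which express Cspg4, were measured beside it. Col1a1, a collagen of fibroblasts, was at 10.5 and 3.57 CPM in the knockout-labelled libraries, against 28.3, 26.2 and 11.2 CPM in control libraries. The 8 fibroblast and leptomeningeal markers summed to 32.2 and 12.8 CPM, against 119.8, 118 and 38.5 CPM in control libraries. That order of the fibroblast sums, below every control in both knockout-labelled libraries, rested on Postn, a matrix protein, at 0.476 and 0.649 CPM, against 50.4, 58.9 and 13.2 CPM in control libraries. Without it, a choice made after seeing the data, the other 7 summed to 31.8 and 12.2 CPM, against 69.4, 59.0 and 25.3 CPM in control libraries, so that knockout-labelled library 1 lay above control 3. Gene by gene, 4 of the 5 tested lay below every control in both knockout-labelled libraries, beside 10.4% of all genes tested. These were Postn, Col1a1, Col3a1 and Dcn. Col3a1 was at 4.88 and 1.41 CPM, against 15.0, 10.6 and 5.43 CPM in control libraries. Dcn was at 0 and 0.270 CPM, against 7.92, 6.65 and 0.595 CPM in control libraries. Col1a2, another collagen, overlapped between the groups at 15.5 and 6.43 CPM, against 17.3, 14.9 and 7.88 CPM in control libraries. Slc6a13, a transporter, was at 0.714 and 0.486 CPM, against 0 reads in every control. The 8 mural markers summed to 3.75 and 3.89 CPM, against 8.67, 5.01 and 2.82 CPM in control libraries, with Kcnj8 and Higd1b at 0 counts in every library. Of the 2 tested, Pdgfrb lay below every control at 0.0595 and 0.216 CPM, against 0.817, 1.27 and 0.520 CPM. Acta2 overlapped at 3.39 and 3.08 CPM, against 7.42, 3.61 and 2.01 CPM in control libraries. The part of these cells in the Cspg4 values was not tested.

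Pdgfra, the growth factor receptor of precursors and of fibroblasts, was scarce at 3.63 and 2.43 CPM in the knockout-labelled libraries, against 4.84, 5.07 and 0.149 CPM in control libraries, the last from 2 reads. Gpr17, a receptor of the step between precursor and premyelinating cell, had 12 and 0 reads in the knockout-labelled libraries, against 2, 0 and 0 reads in the controls. It was the 1 member left out by the filter on low counts. Gpr17 in every library, and Pdgfra in control 3, were thus near the limit of counting.

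The secreted and other genes did not form 1 pattern (4 tested, 0 called, 2 above 0 and 2 below). Plekhb1, a pleckstrin-domain protein enriched in glia, stood at 214 and 54.9 CPM in the knockout-labelled libraries, against 157, 164 and 22.2 CPM in control libraries, in the order of Mag at both ends. Apod, a lipid-binding lipocalin, was at 197 and 96.8 CPM, against 291, 228 and 53.2 CPM in control libraries, with controls 1 and 2 above both knockout-labelled libraries. Ptgds, the prostaglandin D2 synthase of oligodendrocytes, leptomeninges and choroid plexus, was at 4.82 and 6.43 CPM, against 5.78, 2.09 and 2.97 CPM in control libraries. Trf, the iron carrier transferrin, was at 1.78 and 2.97 CPM, against 3.39, 2.85 and 1.86 CPM in control libraries. The values of Ptgds and Trf overlapped between groups and did not track the other members: the library richest in Mag was the lowest in Trf.

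Markers of ependyma and of choroid plexus, another tissue that makes both proteins, were summed. They reached 169 and 225 CPM in the knockout-labelled libraries, against 30.7, 11.9 and 29.6 CPM in control libraries. Ttr was the largest, at 101 and 203 CPM, against 22.1, 5.89 and 24.8 CPM in control libraries. Of the 8 tested, 6 lay above every control in both knockout-labelled libraries, beside 9.85% of all genes tested. Foxj1 and Cfap126 overlapped. The part of these cells in the Ptgds and Trf values was not tested. Per kilobase of exon, Trf averaged 0.775 CPM over the 5 libraries and Ptgds 2.68 CPM, beside 360.0 CPM for Mbp, 163 for Cldn11, 144 for Cnp and 137 for Mag. Of the exon bases of Trf, 63.5% overlap exons of the gene Gm20425 on the same strand, which is listed with 0 reads in every library. A counter that leaves out reads matching more than 1 gene would leave out reads there, and the counting mode was not stated. Among the other members, exons of listed genes overlapped only on the other strand, in Cnp (4.23% of exon bases), Ermn (6.52%), Nkx6-2 and Gpr17 (3.62%), with the remaining 26 free of such overlap.

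**Figure D3:**
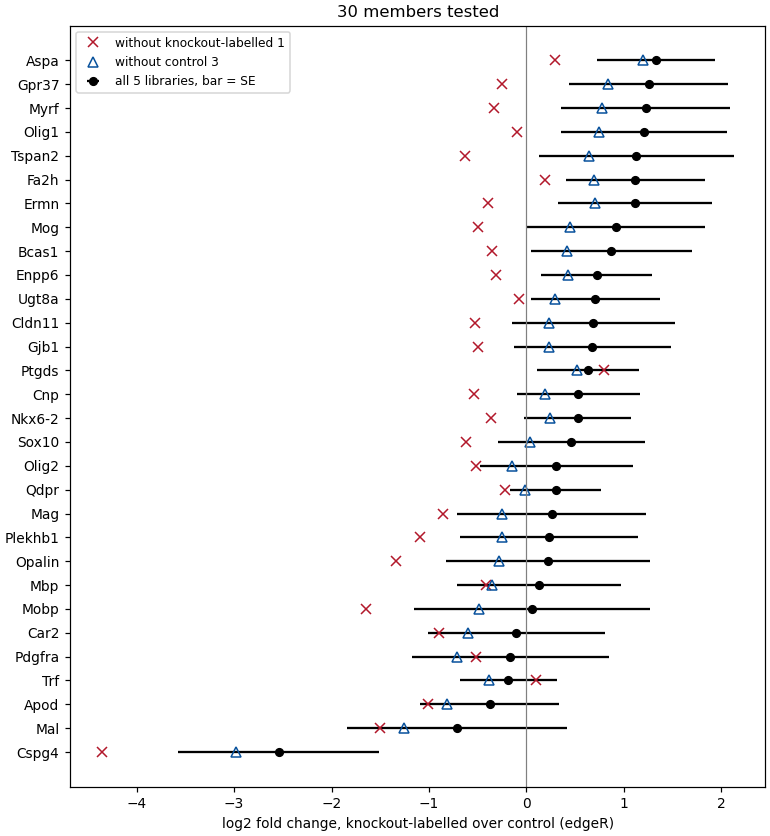
Log2 fold change of labelled knockout over control for the 30 members tested, with bars of 1 standard error, and the same value without knockout-labelled library 1 or without control 3. Most black points lie right of 0 (24 of 30), most crosses lie left of it (26 of 30), and Cspg4 is the farthest left.

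Shares of the most abundant members within the list varied less between libraries than the total of the list. Mbp made up 39.5% and 53.7% of the members' reads in the knockout-labelled libraries, against 54.4%, 44.6% and 42.6% in the controls. Mag made up 8.92% and 6.96%, against 8.28%, 9.71% and 5.42% in the controls, and Cnp 9.24% and 7.48%, against 5.97%, 7.92% and 15.1% in the controls. Across libraries whose total share of these genes spanned 0.130% to 1.13%, the ratio of Mbp to Mag reads stayed between 4.42 and 7.86. Cnp was the exception among these genes, with 2.78 reads per Mag read in control 3, against 0.721 to 1.07 in the other libraries. The ratio of Mal to Mog was 0.563 and 0.991 in the knockout-labelled libraries, against 2.12, 2.07 and 0.717 in the controls, and that of Olig1 to Olig2 was 7.32 and 4.71, against 2.91, 4.38 and 3.51 in the controls. These pairs were chosen after their values were seen.

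Scaled to the median member, 7 of the 30 members no longer overlapped between the groups, a scaling also chosen after the values were seen. That count is near the share of all genes tested whose groups did not overlap before scaling, 20.3%. It is therefore not read as a result about these members. On this scale 4 stood above all controls in both knockout-labelled libraries, as did 1.61% of all genes. A further 3 stood below, as did 4.99%. Since members are centred on this scale and other genes are not, the last 2 shares are no like-for-like background. Myrf had relative levels of 219 and 143 in the knockout-labelled libraries, against 132, 132 and 132 in the controls. Olig1 was at 89.9 and 73.0 on this scale, against 55.3, 60.4 and 51.0 in the controls, and Fa2h at 33.8 and 38.8, against 27.3, 21.5 and 28.5. Bcas1 cleared the controls narrowly, at 159 and 139 against 136, 125 and 120.2 in the controls. Apod was at 84.9 and 130.2, against 214, 168 and 204 in the controls, Cspg4 at 5.96 and 3.13, against 33.1, 60.6 and 49.3, and Sox10, by a narrow margin, at 54.0 and 53.4, against 62.6, 56.3 and 67.2. These relative levels were not tested.

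Other genes of the lineage were counted in the same way. Of 31 further genes of mature oligodendrocytes, 29 were tested and 0 were called in either direction by edgeR (0 at an unadjusted p under 0.05, 0 in DESeq2), with 24 log2 fold changes above 0 and a median of 0.61. Nfasc, the neurofascin of myelin loops and of axons, was at 1332 and 178 CPM in the knockout-labelled libraries, against 344, 536 and 48.1 CPM in control libraries. In this list 23 of 29 genes were highest in knockout-labelled library 1 and 26 of 29 lowest in control 3. Of 12 further precursor genes, 9 were tested and 0 called (0 at an unadjusted p under 0.05, 0 in DESeq2), all 9 with a log2 fold change above 0 (median 0.55). Bcan, a proteoglycan of precursors and astrocytes, was at 199.6 and 47.3 CPM, against 118, 158 and 16.7 CPM in control libraries, and Vcan, a proteoglycan of precursors and other cells, at 18.7 and 4.76 CPM, against 9.62, 11.6 and 4.68 CPM in control libraries. Both lists thus had knockout-labelled library 1 richest and control 3 poorest, as summed levels of 9778 and 2729 CPM, against 5965, 6475 and 1098 CPM in control libraries, show for the mature genes.

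Summed markers of neurons, of astrocytes and of Schwann cells each lay below the sum of the members in every library. The 10 neuron markers summed to 201 and 51.7 CPM in the knockout-labelled libraries, against 75.5, 73.0 and 38.7 CPM in control libraries. Most of that in every library but control 3 was Tubb3, a tubulin, at 125 and 28.9 CPM, against 56.0, 52.3 and 10.2 CPM in control libraries. In control 3 most came from Nefl and Nefm, of neurofilaments, at 13.5 and 10.9 CPM, both above their levels in controls 1 and 2. Of the 6 neuron markers tested, 6 were highest in knockout-labelled library 1 but only 3 were lowest in control 3. Snap25 and Slc17a7 of synapses stayed between 0 and 0.126 CPM. The 10 astrocyte markers summed to 142 and 105 CPM, against 248, 122 and 52.8 CPM in control libraries. Their largest part was S100b, which oligodendrocytes also express, and Aqp4, the astrocyte water channel, reached at most 2.51 CPM. Aldh1l1 ranged from 15.0 to 18.7 CPM, and Gfap from 1.31 CPM in knockout-labelled library 1 to 21.2 CPM in control 1. Of the Schwann cell markers, Pmp2 and Egr2 had 0 reads in every library. That list summed to 167 and 310.3 CPM, against 315, 269 and 395 CPM in control libraries, mostly from Pmp22, which many cell types express. Ngfr was at 29.9 and 4.54 CPM, against 15.1, 20.8 and 8.03 CPM in control libraries. Cdh19 was at 17.4 and 4.05 CPM, against 2.01, 3.99 and 2.82 CPM in control libraries. Endothelial markers summed to 131 and 93.6 CPM, against 90.4, 128 and 42.0 CPM in control libraries, with Cldn5 at 0 reads throughout. Flt1 was at 71.9 and 10.6 CPM, against 72.1, 106 and 29.7 CPM in control libraries. Vwf was at 55.6 and 81.8 CPM, against 13.5, 18.6 and 8.25 CPM in control libraries. The neuron and endothelial sums were thus also highest in knockout-labelled library 1 and lowest in control 3. The 10 microglia markers summed to 3452 and 4224 CPM, against 5916, 6927 and 5631 CPM in control libraries, so the library richest in myelin genes was the poorest in them; their part in the values above was not tested.

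**Figure D4:**
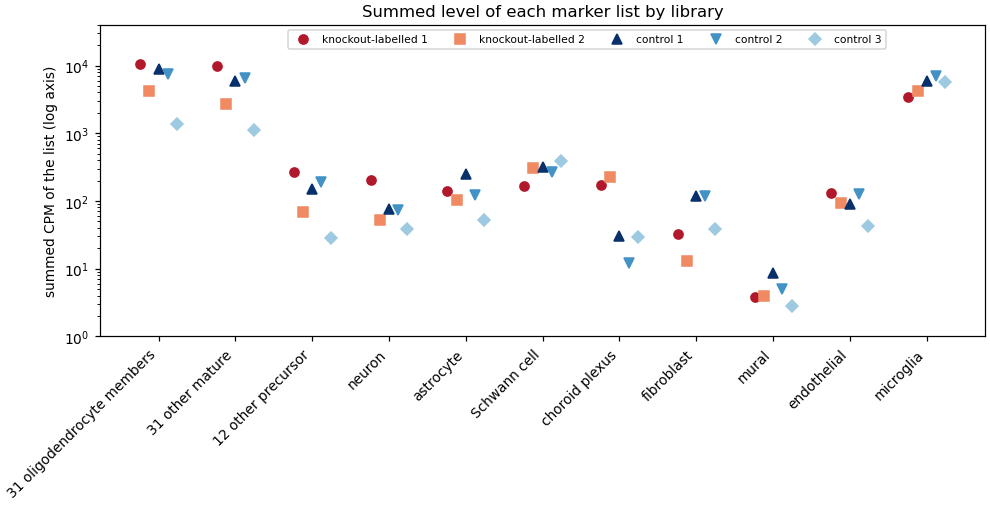
Summed CPM of each marker list (vertical log axis), with 1 symbol per library. The members range from 1346 CPM in control 3 to 10567 CPM in knockout-labelled library 1. The sums of the other mature, precursor, neuron and endothelial lists share this lowest and this highest library. Of the 4 endothelial markers tested, 0 were singly highest in knockout-labelled library 1. Of the 6 neuron markers tested, 3 were singly lowest in control 3. Choroid plexus and ependymal markers are the only list whose sum is above all controls in both knockout-labelled libraries.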

How the data were processed

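RNA was extracted with Trizol and libraries made with a NEBNext Ultra kit, per the labels' protocols. The authors deposited whole-number read counts per gene symbol for 5 libraries; per the submitters' processing notes, FastQC, STAR, HTSeq and the build mm10 were used, without versions, and neither the annotation, the strand setting nor the counting mode is stated. Titles gave the groups and numbers; control 3 carries 2 numbers in its title, of which the library number was taken.

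Counts of 12543 genes kept by filterByExpr were fitted with glmQLFit of edgeR 4.0.16 in R 4.3.3 (TMM, robust) and compared by its two-sided quasi-likelihood test with Benjamini-Hochberg adjustment, 3 residual degrees of freedom and calls at an adjusted p under 0.05. The standard error is the log2 fold change divided by the square root of F. CPM was computed on TMM-scaled sizes, where 1 read is worth 0.0540 to 0.0743 CPM; exon length and overlaps came from GENCODE M21 (GRCm38), which held all 31 members. The biological coefficient of variation was 0.408. DESeq2 1.42.0, limma-voom (limma 3.58.1), other scalings, no filter, a replicate block and each library left out were tried, and, chosen after seeing the data, 2 libraries left out together. The steps were tested on simulated data.

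All members were given in every library where their mean was at least 1 CPM, which held for 30, and of each list of other lineage genes those with the 2 highest means were named, except for a gene not reported here. Members and lists were chosen with earlier results of these data known.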

Additional observations from a re-analysis of the deposited data

How the results depend on the processing

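No member was called, and none of the 30 lay past the threshold, under DESeq2 size factors, library totals, no filter, DESeq2, limma-voom, the replicate block or with any 1 library left out. The median log2 fold change over the members was 0.53, with 0.52 to 0.62 under the other scalings, filter and tools, and -0.50 to 1.06 with each library left out in turn; among the latter it was negative only without knockout-labelled library 1, where 22 of 30 members changed sign. Where 1 library of a group was left, it was assumed to vary like the others. Over all genes, edgeR called 0, with 0 to 0 when each library was left out; DESeq2 called 232 and the replicate block 4. With the replicate block the median over members was -0.04 and 11 of 30 members changed sign. Only 2 numbers are shared, and the labels give these libraries a common number and no more. Correlations of deviations from the group means were 0.15 for number 1 and -0.56 for number 2. Deviations of the 2 knockout-labelled libraries mirror each other, so these correlations cannot decide whether a common number marks a pair.

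Without knockout-labelled library 1 and control 3 together, which leaves 1 library against 2 and was chosen after seeing the data, edgeR called 1252 genes and 12 of 30 members, all lower (4.97% of genes were called lower), with a median of -0.90. Among these, the log2 fold changes with a sign opposite to that over 5 libraries were -0.94 for Mog, -1.34 for Mag, -2.16 for Mobp, -1.82 for Opalin, -0.92 for Gjb1, -1.02 for Sox10, -1.10 for Tspan2 and -1.55 for Plekhb1; the others were Mal, Cspg4, Apod and Car2. Knockout-labelled library 2 already lay below controls 1 and 2 in most members, so the direction of these values was known before the fit. They rest on that 1 library and are not read as a result about the members. The cause was not tested. Depth limits Gpr17, and Pdgfra in control 3.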
